A study of Mus musculus with 8 samples.

Results

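The Notch receptors, ligands and targets examined here were 10 genes of the deposited gene table, which holds 53801 genes in all. They were the receptors Notch1, Notch2 and Notch4, the ligands Jag1, Jag2 and Dll1, and the target genes Hes1, Hey1, Hey2 and Heyl, and each was found in the table by its gene symbol. Their RNA was read in stromal cells sorted from MO5 tumours, which are subcutaneous melanomas grown from B16 mouse melanoma cells that express ovalbumin. The hosts were BAC transgenic ADAM12-GFP mice on a C57Bl/6 background, aged 8 to 12 weeks, in which the Adam12 locus of the transgene drives a Cre recombinase and GFP. Each mouse had received 500000 tumour cells and the tumours were collected on day 8. Cells that were PDPN+ and PDGFRα+ and lacked CD45 and CD31 were divided by GFP into ADAM12+ cells (GFP+, 4 libraries) and ADAM12- cells (GFP-, 4 libraries), so both groups carried the same transgene, tumour and surface gate. GFP reports the activity of a transgene and not ADAM12 protein itself. The study's methods count replicates as mice unless stated otherwise, so p-values are taken to measure the spread between mice. The labels do not say whether a GFP+ and a GFP- library came from the same mouse.

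Notch receptors are single-pass membrane proteins that bind Jagged and Delta-like ligands on a neighbouring cell. Ligand binding lets ADAM10 and then the γ-secretase complex cut the receptor, and the released intracellular domain joins the DNA-binding protein RBPJ and a Mastermind-like coactivator in the nucleus. Among the genes that this complex switches on are the Hes and Hey families, which encode transcriptional repressors. In connective tissue the pathway is best known from the vessel wall, where it passes signals between endothelial cells, which carry Dll4 and Jag1, and the mural cells around them, which carry Notch3.

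In sorted MO5 stromal cells, none of the 10 genes differed between GFP+ and GFP- cells at an adjusted p under 0.05 in DESeq2. Notch2, Jag1, Hes1 and Notch1 were read in every library at group means from 200 to 2981 normalised counts, whereas the other 6 genes had group means under 57. Normalised counts are read counts scaled by size factors, which even out differences in depth between libraries. The largest shift relative to its error was that of Notch1, with a mean of 468 ± 186 (SD, n = 4) among GFP- libraries against 712 ± 77.4 (SD, n = 4) among GFP+ ones.

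The libraries differed greatly in depth. Total counts ran from 883144 to 17535099 in GFP- and from 8776925 to 31666734 in GFP+ libraries. GFP- replicate 3 was the shallowest, and a single read weighed 10.99 normalised counts in it against 0.335 in GFP+ replicate 4. Both replicate 1 libraries held fewer genes with a count (16138 in GFP- and 16313 in GFP+) than any other library except GFP- replicate 3 (15414). Over all genes 15283 had an adjusted p, of which 712 (4.66%) were called higher and 727 (4.76%) lower in GFP+ cells. As a check of the labels, Adam12 was higher in every GFP+ than in every GFP- library (1.69-fold, adjusted p = 0.027 in DESeq2). In edgeR it was not called (adjusted p = 0.064). Pdgfra was also higher in every GFP+ library (2.50-fold, adjusted p = 1.93e-12 in DESeq2 and 0.001 in edgeR). GFP- cells were not free of Adam12 RNA, which ran from 920 to 1693 normalised counts there and from 1833 to 2938 in GFP+ libraries. The summed level of 8 fibroblast genes ran from 253962 to 559191 normalised counts in GFP- and from 666281 to 764299 in GFP+ libraries, and 5 of the 8 were called higher in GFP+ cells. Transcripts of other cells were also present. The summed level of 12 melanocyte genes ran from 26150 to 75561 normalised counts in GFP- and from 4521 to 12102 in GFP+ libraries, and 11 of the 12 were called lower in GFP+ cells (Mc1r was at 0 throughout). The summed level of 7 Schwann cell genes ran from 802 to 2306 in GFP- and from 246 to 591 in GFP+ libraries, and of the 5 with an adjusted p 4 were called lower in GFP+ cells. The part of all these transcripts in the values below was not tested.

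Direct targets of Notch are often bound by RBPJ at the letters GTGGGAA, so the promoters on record were searched for them on both strands. RefSeq promoters (GRCm38.p6, 250 bases before to 50 after the start) were available for 7 of the 10 genes, and the table held no entry for Hes1, Hey1 and Heyl. Of all 32851 promoters in that table, 2097 (6.38%) held the motif in this window of 300 bases. Counted by gene, since some genes have several promoters, 1958 of 27025 genes (7.25%) held it in at least 1 promoter. Among the 7 genes 1 did, Hey2, at 207 and at 4 bases before the start. Likewise by gene, of the 47 with a promoter in a wider list of pathway genes described below, 6 held it, among them the target Hes5, at 226 and at 83 bases before the start. The 250 bases before the start are shown for Hey2 and Hes5, the targets in which the motif occurs more than once, with each copy that lies wholly before the start in capitals (TTCCCAC is the motif on the opposite strand). The Hey2 window is chr10:30842784-30843033 on the minus strand and the Hes5 window is chr4:154960673-154960922 on the plus strand.
Hey2: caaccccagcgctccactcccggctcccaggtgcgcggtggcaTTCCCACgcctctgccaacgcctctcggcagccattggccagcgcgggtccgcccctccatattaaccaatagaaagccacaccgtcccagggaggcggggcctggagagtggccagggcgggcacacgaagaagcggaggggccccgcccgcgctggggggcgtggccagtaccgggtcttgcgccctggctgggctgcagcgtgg
Hes5: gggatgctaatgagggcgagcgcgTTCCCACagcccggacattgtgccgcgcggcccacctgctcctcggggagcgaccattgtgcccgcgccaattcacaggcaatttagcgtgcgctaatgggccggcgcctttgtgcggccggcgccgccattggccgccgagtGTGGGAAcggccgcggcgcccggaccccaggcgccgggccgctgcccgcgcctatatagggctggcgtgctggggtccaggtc
A match of letters describes the sequence and is not evidence of binding. The 2 genes were almost without reads in these cells, with 7 reads of Hey2 and 4 reads of Hes5 over all 8 libraries.

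**Figure D1:**
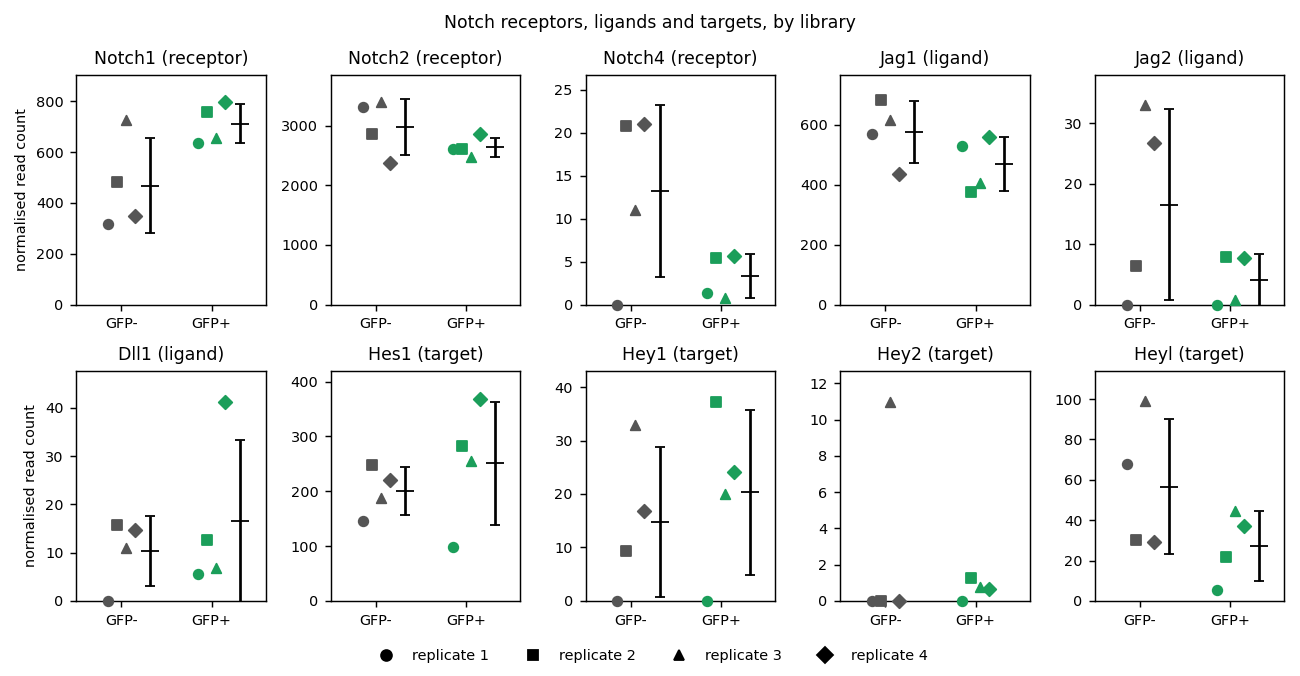
Normalised read count (vertical axis, linear, from 0) of each Notch gene in the 4 GFP- (grey) and 4 GFP+ (green) libraries, with a marker shape for each replicate number and, beside each group, the mean and SD (cut at 0, and not drawn for Hey2). In every panel the points of the groups overlap; for Notch1 a single GFP- library, replicate 3 at 725, lies among the GFP+ libraries.

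Among the receptors, Notch2 was the most abundant. Notch2 was read at 3305, 2853, 3395 and 2370 normalised counts in GFP- replicates 1 to 4 and at 2602, 2609, 2477 and 2862 in GFP+ replicates 1 to 4. The groups overlapped, and the GFP+ libraries lay closer together. The log2 fold change of Notch2 (GFP+ over GFP-) was -0.17 ± 0.16 (SE), with a 95% interval from -0.48 to 0.15 and an adjusted p of 0.609 in DESeq2.

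Notch1, the receptor with the broadest known roles in development, was read at 317, 483, 725 and 348 normalised counts in GFP- replicates 1 to 4. In GFP+ replicates 1 to 4 Notch1 was read at 637, 757, 656 and 797. All GFP+ libraries lay above 3 of the 4 GFP- libraries, and the fourth, GFP- replicate 3, lay within the GFP+ range. Its value rested on 66 reads, whereas the other libraries held between 234 and 2376 Notch1 reads. The log2 fold change of Notch1 was 0.66 ± 0.27 (SE; 95% interval 0.13 to 1.18), or 1.58-fold, with a p of 0.014 and an adjusted p of 0.108 in DESeq2. Without GFP- replicate 3 the log2 fold change was 0.89 with an adjusted p of 0.001, and limma voom on all 8 libraries gave 0.90 with an adjusted p of 0.012, so the call for Notch1 depends on the test and on that library. Across the 19 other settings tried the log2 fold change of Notch1 ran from 0.46 to 0.90 and its adjusted p from 0.001 to 0.621. GFP- replicate 3 also held the most transcripts of 10 leukocyte genes, at 4131 normalised counts against 542 to 1397 in the other GFP- libraries, while GFP+ replicate 2 held 3271 against 509 to 1647. With both of these libraries left out, a choice made after seeing the data, the log2 fold change of Notch1 was 0.85 with an adjusted p of 0.016. In such bulk samples fewer cells of a type and less RNA per cell cannot be told apart.

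**Figure D2:**
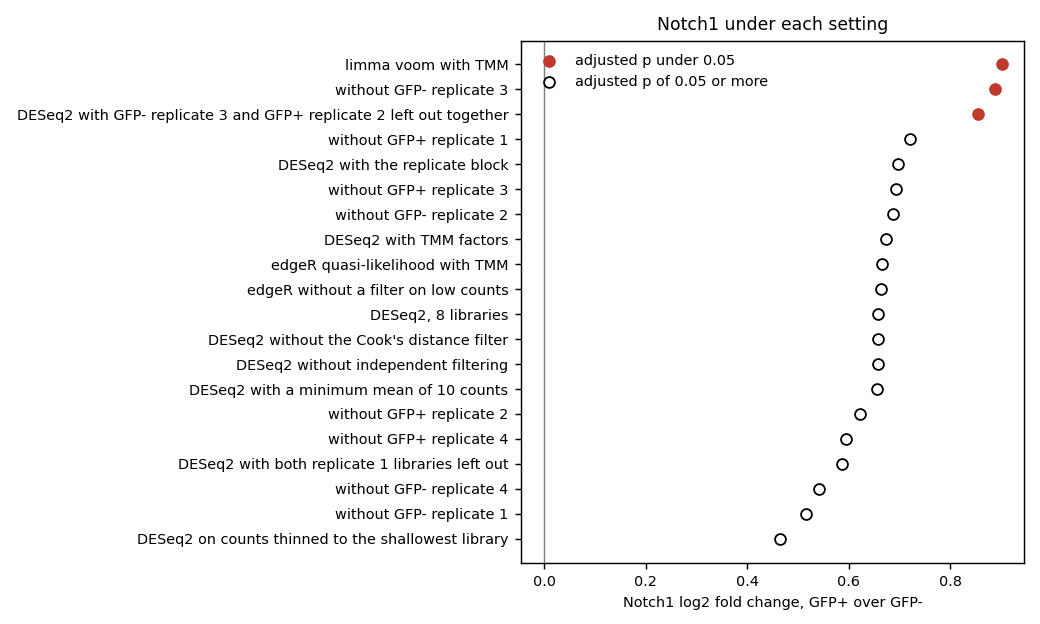
Log2 fold change of Notch1, GFP+ over GFP- (horizontal axis), in the DESeq2 fit of all 8 libraries and under each of the 19 other settings (vertical axis), with filled red points where the adjusted p was under 0.05. The value was above 0 throughout, from 0.46 to 0.90, and 3 settings gave a call, 2 of them without GFP- replicate 3.

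Notch4, a receptor known mainly from endothelial cells, was close to the limit of detection. It was read at 0, 20.8, 10.99 and 21.0 normalised counts in GFP- and at 1.39, 5.44, 0.768 and 5.70 in GFP+ replicates 1 to 4. GFP- replicate 1, at 0, was the library that made the groups overlap; a count of 0 there allows up to 4.07 normalised counts (3 reads, counting error only). In all 70 Notch4 reads fell in GFP- and 32 in GFP+ libraries, and the log2 fold change of Notch4 was -1.97 ± 1.31 (SE) with an adjusted p of 0.415 in DESeq2. Of the endothelial markers, Cdh5 ran from 0 to 29.4 normalised counts over the 8 libraries, with 62 reads in GFP- and 57 in GFP+, whereas Pecam1 ran from 81.0 to 516 in GFP- (highest in replicate 3) and from 141 to 323 in GFP+ libraries. The part of endothelial transcripts in the Notch4 values was not tested. The summed level of 14 endothelial genes ran from 1864 to 3065 in GFP- and from 2135 to 3813 in GFP+ libraries. Of the 9 with an adjusted p, 1 was called lower, Vwf (named after its values were seen). Much of that sum was Tek (818 to 1604 in GFP- and 1259 to 1626 in GFP+ libraries, named after its values were seen).

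Of the ligands, Jag1 was the only one read at over 100 normalised counts in any library. Jag1 was read at 570, 682, 615 and 435 in GFP- replicates 1 to 4 and at 530, 377, 405 and 558 in GFP+ replicates 1 to 4. The groups overlapped, with GFP- replicate 4 below 2 of the GFP+ libraries. For Jag1 the log2 fold change was -0.29 ± 0.23 (SE; 95% interval -0.75 to 0.16), with an adjusted p of 0.522 in DESeq2.

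Jag2 was read at 0, 6.45, 33.0 and 26.8 normalised counts in GFP- and at 0, 7.95, 0.768 and 7.72 in GFP+ replicates 1 to 4. Both replicate 1 libraries held no Jag2 read, and the value of 33.0 in GFP- replicate 3 stood for 3 reads. In the DESeq2 fit the log2 fold change of Jag2 came to -1.86 ± 1.45 (SE; adjusted p = 0.513). Dll1, a Delta-like ligand, was read at 0, 15.8, 10.99 and 14.7 in GFP- and at 5.55, 12.6, 6.91 and 41.3 in GFP+ replicates 1 to 4. GFP+ replicate 4 alone lay above all GFP- libraries. The log2 fold change of Dll1 was 0.68 ± 1.14 (SE; adjusted p = 0.815 in DESeq2), and without GFP+ replicate 4 it was -0.31 (adjusted p = 0.949).

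The targets followed the same division into an abundant gene and several sparse ones. Hes1, a repressor that is the most widely used readout of Notch activity and also answers to other signals, was read at 145, 247, 187 and 221 normalised counts in GFP- replicates 1 to 4. In GFP+ replicates 1 to 4 Hes1 was read at 98.6, 282, 256 and 368. GFP+ replicate 1 was the lowest of all 8 libraries, and the other 3 GFP+ libraries lay above all GFP- libraries. For Hes1 the log2 fold change was 0.32 ± 0.40 (SE; 95% interval -0.45 to 1.099), with an adjusted p of 0.717 in DESeq2. Leaving out single libraries moved the log2 fold change of Hes1 between 0.082 (without GFP+ replicate 4, adjusted p = 0.957) and 0.59 (without GFP+ replicate 1, adjusted p = 0.241).

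Heyl, a Hey-family repressor known from mural cells, was read at 67.8, 30.1, 98.9 and 29.4 normalised counts in GFP- and at 5.55, 21.8, 44.6 and 37.2 in GFP+ replicates 1 to 4. The lowest value was that of GFP+ replicate 1 (4 reads) and the highest that of GFP- replicate 3 (9 reads). Heyl had a log2 fold change of -0.94 ± 0.69 (SE; adjusted p = 0.476 in DESeq2), which was 0.019 when every library was thinned to 883144 reads. Hey1 was read at 0, 9.32, 33.0 and 16.8 in GFP- and at 0, 37.2, 19.97 and 24.2 in GFP+ replicates 1 to 4, with a log2 fold change of 0.64 ± 1.28 (SE; adjusted p = 0.855 in DESeq2). Both replicate 1 libraries were again at 0. Leaving out single libraries moved the log2 fold change of Hey1 between 0.14 (without GFP+ replicate 2) and 1.21 (without GFP- replicate 3). Hey2 had 1 read in all GFP- libraries together and 6 in the GFP+ libraries, at most 3 in any library. The ratio of its read rates (GFP+ over GFP-) was 3.35, with an exact 95% interval from 0.406 to 154 that covers counting error only, and no fold change is given. The mean normalised counts of Hey2 lay the other way round (2.75 in GFP- and 0.674 in GFP+), since the single GFP- read fell in replicate 3, and no direction is read from either.

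**Figure D3:**
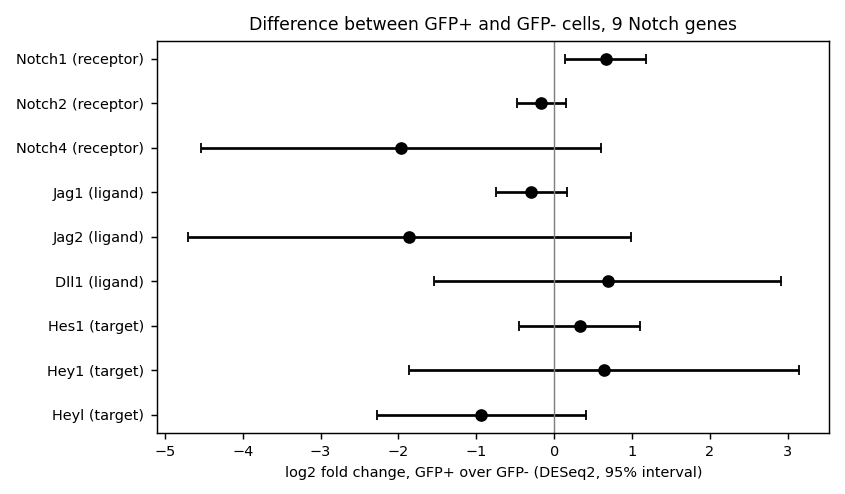
Log2 fold change, GFP+ over GFP- (horizontal axis), of the 9 Notch genes with an adjusted p, with bars for the 95% interval of the DESeq2 fit. The intervals of Notch1, Notch2, Jag1 and Hes1 are short and those of the 5 sparse genes wide, and the interval of Notch1 alone lies above 0 (0.13 to 1.18, before adjustment over all genes).

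Counted together, 9 of the 10 genes had an adjusted p, and 0 were called higher and 0 lower in GFP+ cells, beside 4.66% and 4.76% of all genes tested. With so few genes, a count of 0 does not set them apart from the rest. At an unadjusted p under 0.05 there was 1, Notch1, beside 21% of all genes tested. edgeR's quasi-likelihood test also called 0 of the 8 genes that passed its filter (1, Notch1, at an unadjusted p under 0.05), beside 5.11% of all genes it tested (17.6% unadjusted). limma voom called 1 of 8, beside 9% of all genes it tested. The log2 fold changes were positive for 4 and negative for 5 of the 9 genes, with a median of -0.17, and the median over all genes tested was -0.0082. For 0 of the 9 did every GFP+ library lie above or every GFP+ library lie below all GFP- libraries, beside 6.37% and 5.95% of all genes tested.

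Levels of different genes were compared per kilobase of exon, taking the union of a gene's annotated exons. In GFP- cells the order of mean normalised counts per kilobase was Notch2 (276), Jag1 (98.8), Hes1 (98.2), Notch1 (32.9), Heyl (11.1), Hey1 (4.52), Dll1 (2.46), Jag2 (2.38), Notch4 (1.64) and Hey2 (0.598). The ranges of neighbours in this order did not overlap between Notch2 and Jag1, Hes1 and Notch1, and Notch1 and Heyl, and all other neighbours overlapped. In GFP+ cells the order was Notch2 (245), Hes1 (123), Jag1 (80.2), Notch1 (50.02), Hey1 (6.23), Heyl (5.33), Dll1 (3.93), Jag2 (0.590), Notch4 (0.412) and Hey2 (0.147). Here the neighbours without overlap were Notch2 and Hes1, Jag1 and Notch1, Notch1 and Hey1, and Dll1 and Jag2. Neighbours among the genes with few reads rested on few reads in each library. In both groups, then, Notch2 was the main receptor transcript, Jag1 the main ligand and Hes1 the main target of this list.

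Because a ratio of genes within a library does not depend on its size factor, the 4 abundant genes were also compared with each other in each library, over 6 pairs chosen after their values were seen. The ratio of Notch1 to Notch2 per kilobase of exon was 0.0728, 0.128, 0.162 and 0.111 in GFP- and 0.186, 0.220, 0.201 and 0.211 in GFP+ replicates 1 to 4. Every GFP+ library had a higher ratio than every GFP- library, replicate 3 included. The means were 0.119 ± 0.037 (SD, n = 4) and 0.204 ± 0.015 (SD, n = 4). The ratio of Notch1 to Jag1 was likewise higher in every GFP+ library, from 0.492 to 0.822 against 0.228 to 0.483 (1.97-fold). The ratios of the other 4 pairs overlapped between the groups. These ratios restate the Notch1 values already given, were chosen on them and are a description with no test. Such a ratio bears on whether both genes of a pair changed alike and not on which of them changed.

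**Figure D4:**
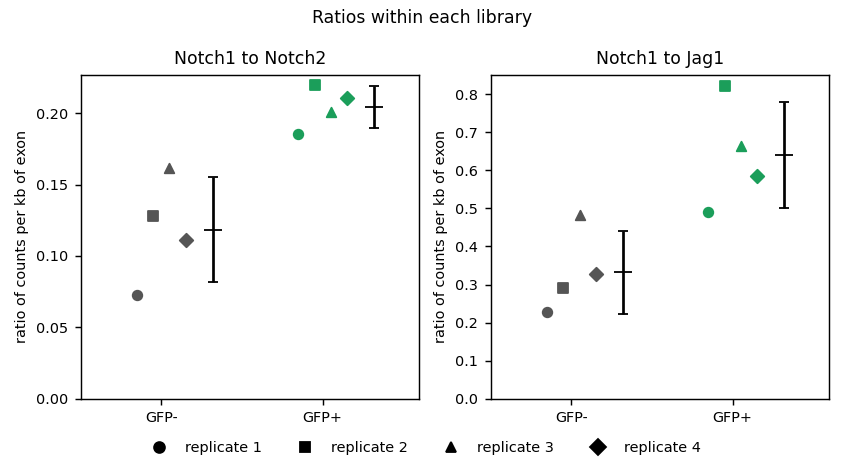
Ratio of Notch1 to Notch2 (left) and of Notch1 to Jag1 (right), as normalised counts per kilobase of exon (vertical axes, linear, from 0), in each GFP- (grey) and GFP+ (green) library, with a marker shape for each replicate number and the mean and SD beside each group. All GFP+ libraries lie above all GFP- libraries in both panels, from 0.186 to 0.220 against 0.0728 to 0.162 for Notch1 to Notch2.

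The rest of the pathway was described with 57 further genes grouped by role, all present in the table and 49 with an adjusted p. Of these 49, 2 were called higher and 2 lower in GFP+ cells, and 45 were not called. The median log2 fold change was 0.02, with 25 values positive and 24 negative, beside -0.0082 over all genes tested, of which 4.66% were called higher and 4.76% lower.

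Among the 5 other receptors and ligands, 3 had an adjusted p and 0 were called, with the log2 fold change of Notch3 at 0.51 ± 0.42 (SE; adjusted p = 0.544 in DESeq2; named after its values were seen). Dll4, the endothelial ligand, had 34 reads in GFP- and 18 in GFP+ libraries and a log2 fold change of -2.01 ± 1.51 (SE; adjusted p = 0.489 in DESeq2). Rgs5, which marks pericytes, ran from 0 to 22.0 normalised counts in GFP- and from 11.1 to 58.2 in GFP+ libraries and was not called (adjusted p = 0.297). The summed level of all 10 pericyte and smooth muscle genes ran from 582 to 1220 in GFP- and from 617 to 1452 in GFP+ libraries, and of the 9 with an adjusted p 1 was called higher (Abcc9) and 1 lower (Mcam; both named after their values were seen). Of the 5 glycosyltransferases that modify the receptor, 4 had an adjusted p and 0 were called. Lfng, which tunes the choice of ligand, ran from 5.43 to 121 normalised counts in GFP- and from 24.6 to 65.3 in GFP+ libraries (log2 fold change -0.05, adjusted p = 0.986).

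The cleavage group held the most stable call. Of its 10 genes, all with an adjusted p, 0 were called higher and 1 lower, beside 4.66% and 4.76% of all genes tested. That gene was Aph1c, a rodent-duplicated copy of a γ-secretase scaffold subunit. Aph1c was read at 167, 234, 374 and 380 normalised counts in GFP- and at 91.7, 88.3, 106 and 113 in GFP+ replicates 1 to 4. Every GFP+ library lay below every GFP- library. Aph1c fell by 1.501 ± 0.33 (SE) on the log2 scale (adjusted p = 0.000178 in DESeq2, 0.022 in edgeR), and it was called under all 19 other settings. Its neighbour and close copy Aph1b had a log2 fold change of 1.18 ± 0.61 (SE; adjusted p = 0.249; named after its values were seen), with 322 reads in GFP- and 1153 in GFP+ libraries, and was not called. The 2 copies lie side by side on chromosome 9 and are near-identical, so reads that match both can be lost or assigned to either, and the value of each is uncertain. Ncstn, the substrate receptor of the complex, had a log2 fold change of 0.03 ± 0.20 (SE; adjusted p = 0.962 in DESeq2). Adam17, another sheddase, had a log2 fold change of 0.12 ± 0.17 (SE; adjusted p = 0.768 in DESeq2). Adam10, the main sheddase of ligand-bound Notch, was read at 1445, 1658, 1209 and 1597 normalised counts in GFP- and at 772, 1176, 942 and 1303 in GFP+ replicates 1 to 4. GFP+ replicate 4 was the only GFP+ library within the GFP- range. The log2 fold change of Adam10 came to -0.50 ± 0.21 (SE) in DESeq2 and was not called (adjusted p = 0.124 in DESeq2, 0.186 in edgeR). Without GFP+ replicate 4, the library that overlapped, the DESeq2 value was -0.62 (adjusted p = 0.049).

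**Figure D5:**
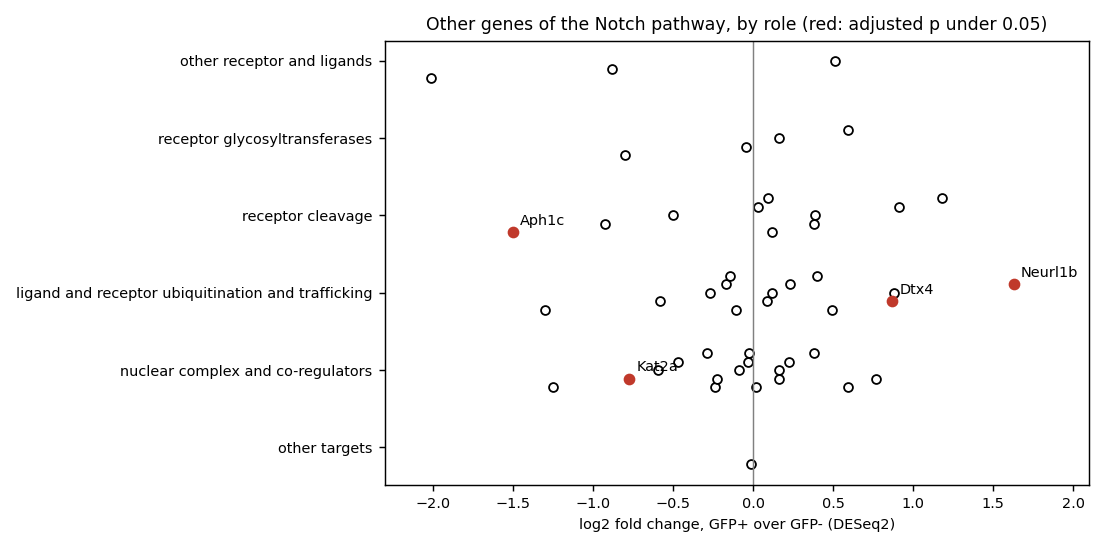
Log2 fold change, GFP+ over GFP- (horizontal axis), of the 49 other pathway genes with an adjusted p, grouped by role (vertical axis, points spread vertically for legibility), with called genes filled red and named. Values lie on both sides of 0, and the 4 called genes are Aph1c and Kat2a below 0 and Neurl1b and Dtx4 above it.

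Of the 14 genes of ubiquitination and trafficking, 2 were called higher and 0 lower, beside 4.66% and 4.76% of all genes tested. Neurl1b, a ubiquitin ligase that acts on Notch ligands, was read at 12.2, 36.5, 10.99 and 16.8 normalised counts in GFP- and at 54.2, 59.0, 68.4 and 76.8 in GFP+ replicates 1 to 4. All GFP+ libraries lay above all GFP- libraries, of which replicate 3 held a single Neurl1b read. The log2 fold change of Neurl1b was 1.63 ± 0.54 (SE), with an adjusted p of 0.030 in DESeq2 and 0.195 in edgeR, and Neurl1b was called under 5 of the 19 other settings. Dtx4, a Deltex-family ubiquitin ligase, was read at 289, 363, 582 and 311 in GFP- and at 476, 649, 661 and 932 in GFP+ replicates 1 to 4. GFP- replicate 3 was again the library that made the groups overlap. The log2 fold change of Dtx4 was 0.87 ± 0.29 (SE), with an adjusted p of 0.032 in DESeq2 and 0.081 in edgeR, and Dtx4 was called under 10 of the 19 other settings. Numb, an adaptor that limits Notch signalling, had a log2 fold change of -0.15 ± 0.22 (SE; adjusted p = 0.793 in DESeq2).

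Of the 17 genes of the nuclear complex and its co-regulators, 0 were called higher and 1 lower, beside 4.66% and 4.76% of all genes tested. Kat2a, a histone acetyltransferase used by many transcription factors besides Notch, was read at 488, 607, 538 and 581 normalised counts in GFP- and at 260, 378, 367 and 293 in GFP+ replicates 1 to 4, without overlap. Kat2a fell by 0.77 ± 0.21 (SE) on the log2 scale (adjusted p = 0.004 in DESeq2, 0.051 in edgeR) and was called under 15 of the 19 other settings. Rbpj, the DNA-binding partner of all 4 Notch receptors, was read at 374, 555, 1439 and 664 in GFP- and at 950, 985, 614 and 912 in GFP+ replicates 1 to 4. GFP- replicate 3 was the highest of all 8 libraries for Rbpj, as it was highest of the GFP- libraries for Notch1 and Dtx4. Rbpj had a log2 fold change of 0.22 ± 0.36 (SE; adjusted p = 0.812 in DESeq2), and without GFP- replicate 3 of 0.69 (adjusted p = 0.076).

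Beyond the members, 6 other targets were listed, of which 1 had an adjusted p and 0 were called. Nrarp, a feedback inhibitor of the pathway, was read only in GFP- replicate 4 (4 reads) and GFP+ replicate 2 (13 reads), and the other 6 libraries were at 0.

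All 10 genes are protein-coding and lie on 7 chromosomes in GENCODE M21 (GRCm38). Notch1 lies at chr2:26457903-26516663 on the minus strand, Notch2 at chr3:98013527-98150361 on the plus strand, Jag1 at chr2:137081456-137116644 on the minus strand and Hes1 at chr16:30064384-30067796 on the plus strand. The gene bodies of Notch1, Notch4 and Dll1 overlap annotated genes on the opposite strand, and those of Notch1, Notch2 and Jag2 overlap genes on the same strand, whose shared reads the counting may have left out.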

How the data were processed

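RNA was measured in 8 libraries of mouse tumour stromal cells, 4 GFP+ and 4 GFP-, prepared from small amounts of total RNA by a strand-keeping SMARTer protocol. Per the study's methods and the submitters' processing notes, the authors trimmed reads with cutadapt 3.4, mapped them to GRCm38 with STAR 2.7.3a and assigned them to genes by strand with featureCounts 2.0.1. The authors deposited raw read counts per gene and library, from which every value here starts. Beside them stands the authors' normalised score (counts over DESeq2 size factors), used only to check the size factors, and the authors' own fold changes and p-values, which were left unused. Per-sample columns left unused numbered 0.

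Genes with a count (29043) were fitted with DESeq2 1.42.0 in R 4.3.3, with the group as the only term, two-sided Wald tests, independent filtering and Benjamini-Hochberg adjustment over all genes, and were called at an adjusted p under 0.05. The Cook's distance filter left 317 genes and independent filtering 13443 genes without an adjusted p. Fold changes are unshrunken. Alternatives were edgeR 4.0.16 (quasi-likelihood, TMM, with and without its filter on low counts), limma 3.58.1 (voom), DESeq2 with TMM factors, with a minimum mean of 10 counts, without each filter, on counts thinned to 883144 reads or with the replicate number as a block, and each library left out in turn. Leaving out pairs of libraries was chosen after seeing the data. Ratios of genes within a library are described without a test. The code was tested on simulated data.

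No replicates agreed within sampling noise: the chi-square per degree of freedom within groups ran from 9.68 to 72.96. Intervals and limits from reads cover counting error only. Exon lengths and positions came from GENCODE M21 and promoters from RefSeq, both on GRCm38. The members, gene lists and rules were chosen with earlier results of these data known. Named were all 10 members, the called genes of the wider list, 9 fixed genes of that list (1 is not reported here), and fixed markers and sort genes. Genes outside this rule are marked where they appear, except Hes5, named for its promoter motif, and Mc1r, named for its lack of reads.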

Additional observations from a re-analysis of the deposited data

Results flagged for a closer look

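Among 26 named genes, 51 groups of 4 libraries with more than 3 reads were examined for a library far from the other 3, by the gap to its neighbour over the group's range (Dixon's criterion). Chance flags about 1 in 20 groups, and 2 were found. Nrarp stood at 2.101 normalised counts in GFP- replicate 4 (4 reads) and at 5.44 in GFP+ replicate 2 (13 reads), with all other libraries of each group at 0.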

How the results depend on the processing

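The 1439 genes called over the whole table became 732 with edgeR and 804 on thinned counts, and ran from 969 (without GFP- replicate 4) to 1837 (without GFP- replicate 3) when each library was left out. Of the Notch members 0 were called except Notch1, which was called (1 gene) by limma voom, without GFP- replicate 3 (range 0 to 1 over the libraries left out), and without GFP- replicate 3 and GFP+ replicate 2 together (1). Of the wider list 4 genes were called in the main fit, 1 with edgeR, 2 without independent filtering, 1 on thinned counts, and 2 to 5 with each library left out; the cause was not tested. The log2 fold changes of Notch2, Notch4, Jag1, Jag2, Hes1 and Hey1 kept their sign and stayed uncalled under every alternative that gave a value. Dll1 reversed to -0.31 without GFP+ replicate 4, with a range of -0.31 to 1.01 over the libraries left out, and Heyl to 0.019 on thinned counts; neither was called in any fit. The fitted fold change of Hey2 is not given, since it had too few reads. With the replicate number as a block 1492 genes were called, and of the named members and pathway genes Adam10 passed the threshold (adjusted p = 0.048, from 0.124) and Neurl1b no longer did (0.058, from 0.030). Deviations of same-numbered libraries from their group means correlated at 0.044, -0.167, -0.124 and 0.258 in replicates 1 to 4. Only GFP- replicate 4 correlated best with the GFP+ library of its own number. With 4 libraries per group, such correlations cannot decide whether libraries of equal number share a mouse. Depth limits the sparse genes, since 1 read in GFP- replicate 3 weighed 10.99 normalised counts and 3 reads 33.0.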
